A study of Mus musculus with 12 samples.

Results

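The 10 genes described here encode enzymes of glycolysis: Hk1, Hk2, Gpi1, Pfkl, Pfkp, Aldoa, Gapdh, Pgk1, Ldha and Ldhb. They were taken as a list of symbols from 23337 genes listed in 2 count tables of mouse RNA, and all 10 were found in both tables and passed the filter on low counts at both times. RNA was measured in peeled urothelium, the epithelial lining of the urinary tract stripped from the layers beneath it, of mice whose genotype is given as Stag2-WT or Stag2-KO. All animals, WT included, had been fed a diet with TMX for a week, and were killed 1 week or 1 month after that diet began. There were 3 libraries in each of the 4 groups. The Cre line or promoter behind the knockout, and the strain, age and sex of the animals, are not given in the sources used here. Stag2 is X-linked and encodes a subunit of cohesin, the ring-shaped complex that holds sister chromatids and chromatin loops.

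Glycolysis converts glucose to pyruvate in the cytosol and yields ATP without oxygen. Hexokinases trap glucose in the cell as glucose 6-phosphate, phosphofructokinases carry out the committed step, and lactate dehydrogenases interconvert pyruvate and lactate. Several steps have isoenzymes from separate genes whose share differs between tissues and between resting and dividing cells, and many of these genes are targets of the hypoxia-inducible factor HIF-1.

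Total counts per library ran from 5580961 to 9497088. Levels are CPM, a gene's share of its library's counts, scaled by TMM, a factor that makes most genes comparable between libraries. Because these libraries count transcript 3′ ends, a gene's CPM was not divided by length, and levels are compared between libraries rather than between genes. Stag2 was lower in each KO library than in every WT library of its time, at 59.6 to 72.2 against 106.2 to 151.1 CPM at 1 week and 19.3 to 39.4 against 45.1 to 64.6 CPM at 1 month. Its log2 fold change was -0.89 (SE 0.27, edgeR adjusted p 0.198) at 1 week and -0.88 (SE 0.22, adjusted p 0.0507) at 1 month. KO replicate 3 of 1 week stood apart: the chi-square per degree of freedom between its counts and those of the other KO libraries was 138.3 and 198.3, against 59.6 between those libraries and 9.10 to 41.7 among WT libraries of 1 week. Xist, the RNA that coats the inactive X chromosome, was at 1 to 13 counts in WT and at 6392 to 10406 in KO at 1 week, and Ddx3y, a Y-linked gene, was at 780 to 1241 counts in WT and at 0 to 2 in KO. Genotype and sex, as these genes show it, therefore cannot be told apart at 1 week, for any gene. At 1 month KO replicate 3 was the 1 library with high Xist, at 7764 counts, and without Ddx3y counts. The labels give batch 1 for all libraries of 1 week, batch 2 for replicates 1 and 2 of 1 month and batch 3 for replicate 3 of 1 month, so time and batch cannot be told apart. The batch 3 libraries, 1 WT and 1 KO, also differ in sex by these genes, so genotype and sex cannot be told apart within batch 3.

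None of the 10 genes passed an adjusted p of 0.05 in edgeR's quasi-likelihood test at either time, where 0.0627% of 12754 genes passed at 1 week and 2.22% of 12139 genes at 1 month. An unadjusted p under 0.05 was reached by 2 of 10 at each time, against 15.5% and 21.5% of all genes tested. Those genes were Pfkp and Ldha at 1 week, both higher in KO, and Gapdh and Ldha at 1 month, where Gapdh was higher and Ldha lower in KO. DESeq2, run as a second tool, called 1 of 10, Pfkp, at 1 week, where it called 7.5% of all genes, and 0 of 10 at 1 month, where it called 6.33%. At 1 week 8 of 10 log2 fold changes were above 0, against 51.5% of all genes, with a median of 0.21 beside 0.02 over all genes. Without KO replicate 2 it was 4 of 10, with a median of -0.13, since Hk2 (-0.79), Gpi1 (-0.10), Gapdh (-1.23) and Pgk1 (-0.38) turned negative. Without KO replicate 3 it was 8 of 10, with a median of 0.36. At 1 month 2 of 10 were above 0, against 49.6%, with a median of -0.05 beside -0.01, and Pfkp, Aldoa, Pgk1 and Ldhb turned positive when libraries were scaled by size alone, which moved the median of all genes to 0.22. KO libraries lay above every WT library for 3 of 10 genes at 1 week (Pfkp, Aldoa and Ldha), against 13.3% of all genes, and below for 0, against 13.4%, or 26.6% in either direction. Without KO replicate 2 these counts were 3 and 2, against 20.5% and 24.2%, and without KO replicate 3 they were 4 and 0, against 19.6% and 18.3%. At 1 month the genotypes overlapped for all 10, while 6.42% of all genes had KO higher and 6.71% KO lower without overlap, 13.1% together.

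**Figure D1:**
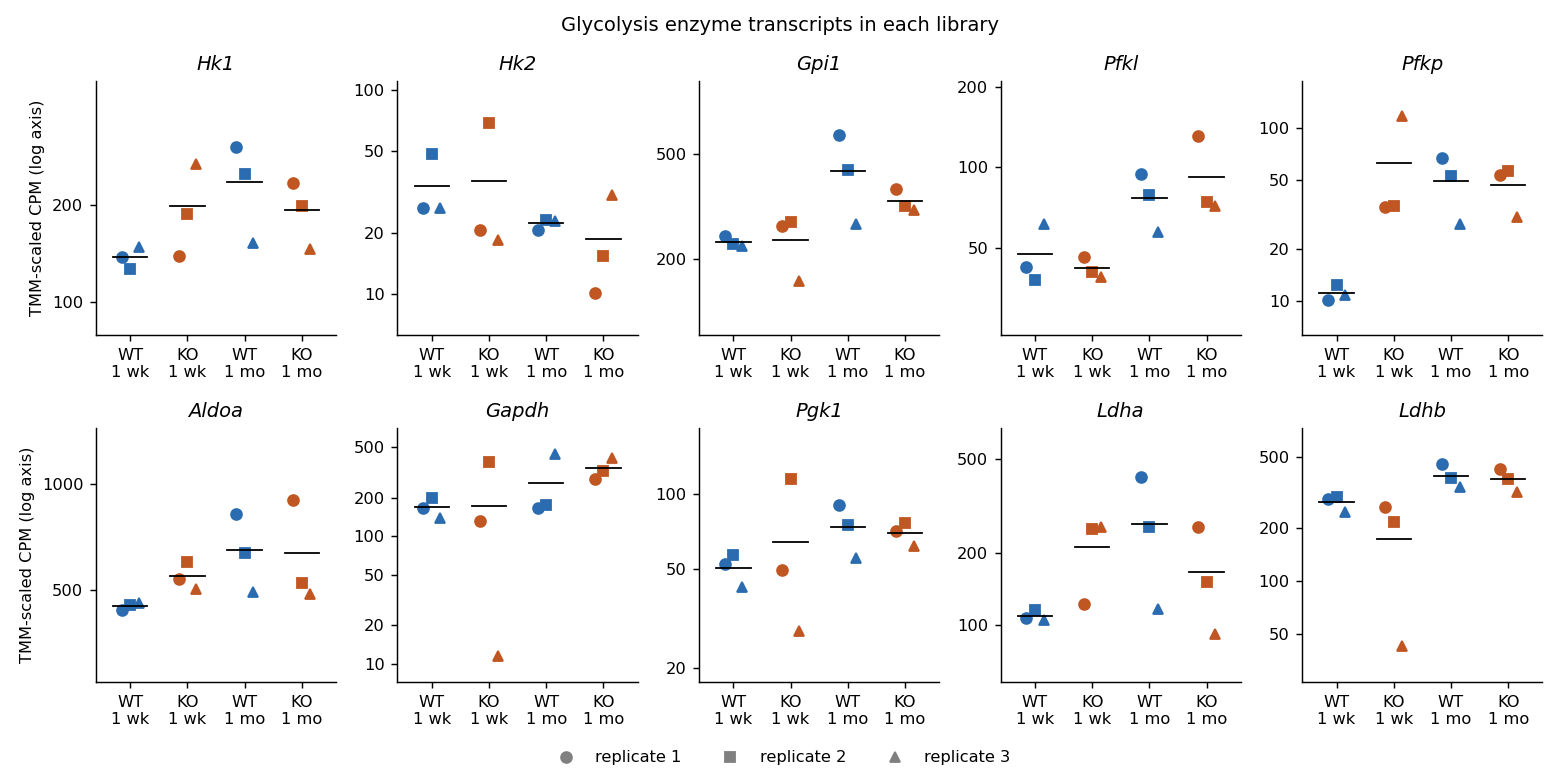
TMM-scaled CPM (log axis) of each glycolysis enzyme gene in the 12 libraries, with WT in blue and KO in orange, replicates by symbol and the group mean as a bar. Pfkp, Aldoa and Ldha separate the genotypes at 1 week, and KO replicate 3 of 1 week has the lowest Gapdh (11.5 CPM) and Ldhb (42.8 CPM) of all libraries.

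**Figure D2:**
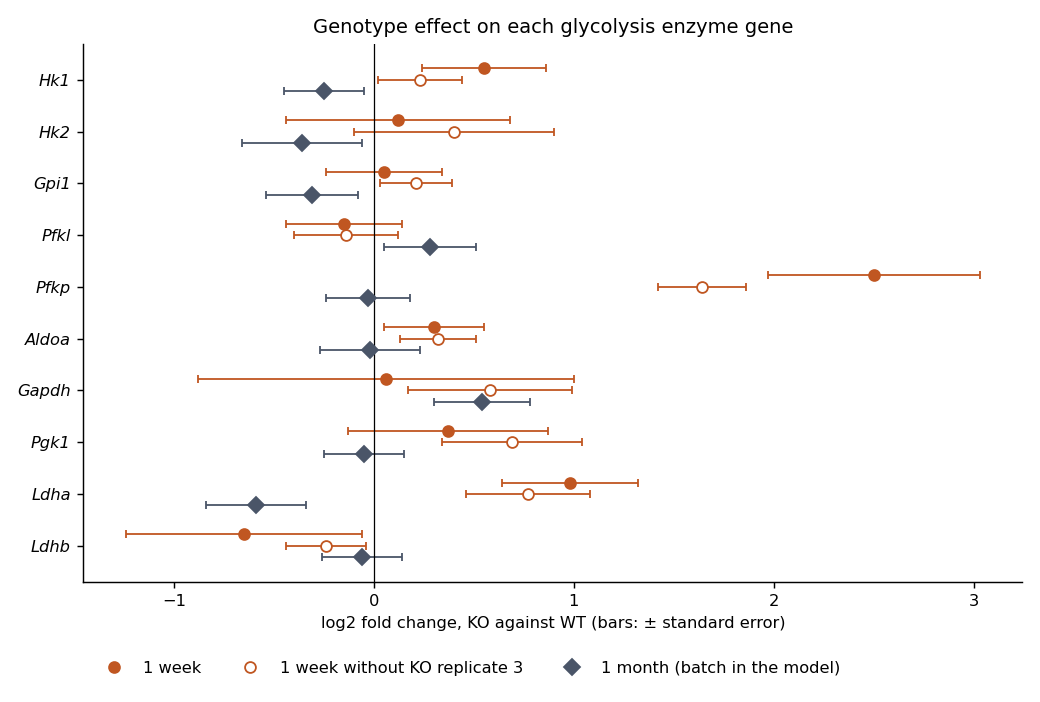
Log2 fold change of KO against WT with its standard error, for 1 week (filled circles), 1 week without KO replicate 3 (open circles) and 1 month (diamonds). Pfkp at 1 week stands at 2.50 with all libraries and at 1.64 without KO replicate 3, and every estimate of 1 month lies between -0.59 and 0.54.

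Phosphofructokinase carries the committed step, and its platelet-type gene Pfkp (chromosome 13, 6579768 to 6648777, minus strand, GRCm38) had the largest difference of the 10 at 1 week. WT libraries had 10.2, 12.5 and 10.9 CPM and KO libraries 34.96, 35.8 and 116.9 CPM, with no overlap. The log2 fold change was 2.50 (SE 0.53, edgeR adjusted p 0.117). KO replicate 3, the library that stood apart, held the highest level. Without it the value was 1.64 (SE 0.22) and passed, with an adjusted p of 0.0213, in a fit where 2.45% of 13059 genes passed. DESeq2 gave an adjusted p of 0.000765 with all libraries, the edgeR fit of all 12 libraries, which called 4.21% of genes, gave 0.0178, and leaving out any WT library gave 0.478 to 0.507. At 1 month WT libraries had 66.9, 53.1 and 27.9 CPM and KO libraries 53.7, 56.6 and 30.6 CPM. The genotypes overlapped at 1 month, with a KO-to-WT log2 difference of -0.03 (SE 0.21, adjusted p 0.954), and every library of 1 month was above every WT library of 1 week.

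The liver-type gene Pfkl (chromosome 10, 77986947 to 78010083, minus strand) encodes the same activity. At 1 week it had 42.5, 37.9 and 61.6 CPM in WT and 46.4, 40.7 and 39.0 CPM in KO, so that the KO libraries lay within the WT range. At 1 month it had 94.9, 79.0 and 57.2 CPM in WT and 131.2, 74.0 and 71.8 CPM in KO, with 1 high KO library. The log2 fold changes were -0.15 (SE 0.29) and 0.28 (SE 0.23), with edgeR adjusted p of 0.821 and 0.508.

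The promoters of this pair are shown because the genes encode the same step and Pfkp had the larger difference at 1 week. Each is the 250 bases before the RefSeq start (GRCm38.p6), written on the gene's strand, at chr13:6648772-6649021 for Pfkp and chr10:78009808-78010057 for Pfkl. Capitals mark the core of the hypoxia response element, searched as ACGTG or GCGTG on both strands.
Pfkp: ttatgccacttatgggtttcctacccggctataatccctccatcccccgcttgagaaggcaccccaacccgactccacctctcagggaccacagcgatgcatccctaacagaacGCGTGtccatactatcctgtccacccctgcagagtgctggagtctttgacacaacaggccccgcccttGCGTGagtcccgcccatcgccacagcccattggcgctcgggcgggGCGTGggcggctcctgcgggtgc
Pfkl: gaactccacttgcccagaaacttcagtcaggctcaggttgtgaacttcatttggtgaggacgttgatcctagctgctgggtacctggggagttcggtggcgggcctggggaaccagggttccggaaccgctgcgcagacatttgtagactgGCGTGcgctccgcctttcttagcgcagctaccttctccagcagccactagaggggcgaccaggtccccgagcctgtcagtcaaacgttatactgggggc
The core occurred 3 times before Pfkp and 1 time before Pfkl. RefSeq lists 14 starts for the 10 genes, and 11 of these windows, from 9 of the genes, hold the core, as do 38.6% of all 32851 promoter windows of that length. The Aldoa windows with the core overlap and hold the same site, 198 and 122 bases before their starts, so that site counts in both. E2F letters (TTTCCCGC, TTTGGCGC, TTTCGCGC or TTTGCCGC, both strands) were in 0 of the 14 windows and in 1.9% of all. The cell cycle homology region, to which DREAM binds, was searched as TTTGAA or TTTCGAA on both strands and was in 1 of the 14, before Gapdh, and in 16.5% of all windows. A match of letters is a description of the sequence and no measure of binding.

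The hexokinases carry the entry step. Hk1 (chromosome 10, 62268855 to 62379908, minus strand), the broadly expressed form, had 138.5, 126.7 and 148.7 CPM in WT at 1 week and 139.1, 188.3 and 268.8 CPM in KO. KO replicate 1 lay within the WT range, and the other KO libraries above it. Its log2 fold change was 0.55 (SE 0.31, edgeR adjusted p 0.429), and 0.23 (SE 0.21) without KO replicate 3. At 1 month Hk1 had 303.3, 249.7 and 153.3 CPM in WT and 234.2, 198.5 and 146.1 CPM in KO. In each genotype the library of batch 3 was the lowest, and the log2 fold change was -0.25 (SE 0.20, adjusted p 0.495).

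Hk2 (chromosome 6, 82725025 to 82774454, minus strand), the insulin- and hypoxia-responsive form, had 26.4, 48.4 and 26.3 CPM in WT against 20.6, 68.8 and 18.4 CPM in KO at 1 week. The KO libraries lay on both sides of the WT range, with replicate 2 above it and replicates 1 and 3 below. At 1 month it had 20.6, 23.1 and 22.8 CPM in WT and 10.1, 15.3 and 30.6 CPM in KO. Within batch 2 both KO libraries were below both WT libraries, by -0.80 on the log2 scale, while in batch 3 the KO library was higher by 0.42. The fitted log2 fold changes were 0.12 (SE 0.56, edgeR adjusted p 0.935) and -0.36 (SE 0.30, adjusted p 0.504).

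Glucose 6-phosphate isomerase and aldolase work on either side of phosphofructokinase. Gpi1 (chromosome 7, 34201330 to 34230336, minus strand) had 244.4, 228.0 and 225.4 CPM in WT against 268.6, 277.3 and 165.6 CPM in KO at 1 week. KO replicates 1 and 2 lay above the WT range and replicate 3 below it, which left a KO-to-WT log2 difference of 0.05 (SE 0.29, edgeR adjusted p 0.945). At 1 month it had 590.1, 433.5 and 272.7 CPM in WT and 369.4, 318.8 and 308.7 CPM in KO, a KO-to-WT log2 difference of -0.31 (SE 0.23, adjusted p 0.456). The KO libraries of 1 month lay close together and within the wider WT range.

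Aldoa (chromosome 7, 126795234 to 126800751, minus strand), the main aldolase of muscle and most growing tissues, varied least of the 10 among libraries, with an SD of 0.33 on the log2 CPM scale. WT libraries of 1 week had 440.2, 455.0 and 459.7 CPM and KO libraries 539.4, 602.2 and 505.8 CPM. Every KO library was above every WT library, by a KO-to-WT log2 difference of 0.30 (SE 0.25, edgeR adjusted p 0.576). At 1 month WT had 822.5, 635.5 and 493.3 CPM and KO 897.7, 525.7 and 488.8 CPM, with overlap and a KO-to-WT log2 difference of -0.02 (SE 0.25, adjusted p 0.976).

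Gapdh and Pgk1 encode the consecutive enzymes that form the first ATP after the sugar is split. Gapdh (chromosome 6, 125161715 to 125166467, minus strand), often used as a reference gene, varied most of the 10, with an SD of 1.39 on the log2 CPM scale over the 12 libraries. At 1 week WT had 167.6, 200.6 and 138.9 CPM and KO 131.8, 378.9 and 11.5 CPM. KO replicate 2 was above the WT range, replicate 1 just below it and replicate 3, with 58 counts, far below, and the log2 fold change was 0.06 (SE 0.94, edgeR adjusted p 0.984). Its value without KO replicate 3 was 0.58 (SE 0.41) and without KO replicate 2 it was -1.23. At 1 month WT had 165.8, 174.6 and 440.1 CPM and KO 282.2, 327.0 and 414.3 CPM. Replicates 1 and 2 separated by genotype, and the batch 3 libraries were the highest of each genotype. The log2 fold change was 0.54 (SE 0.24, adjusted p 0.218). In batch 2 alone, with 2 libraries a genotype, it was 0.88 and passed (adjusted p 0.027) along with 12.2% of all genes, and the same call followed without WT replicate 3 (0.87, adjusted p 0.0265) or KO replicate 3 (0.87, adjusted p 0.027), which leave the genotype contrast to batch 2 and call 12.3% of all genes each. The difference between the single libraries of batch 3, which also differ in sex, was -0.09. Gapdh, Aldoa, Pgk1 and Ldha each have 2 pseudogenes named after them in GENCODE M21. How reads that match several copies were counted is not given in the sources used here, and their share was not measured.

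Pgk1 (chromosome X, 106187100 to 106203699, plus strand) is the X-linked member. It had 52.2, 56.9 and 42.2 CPM in WT against 49.3, 114.7 and 28.1 CPM in KO at 1 week, with KO libraries on both sides of the WT range. The log2 fold change was 0.37 (SE 0.50, edgeR adjusted p 0.738). At 1 month WT had 90.1, 74.9 and 55.4 CPM and KO 70.7, 76.2 and 61.9 CPM, a KO-to-WT log2 difference of -0.05 (SE 0.20, adjusted p 0.908). The KO library with high Xist at 1 month, replicate 3, had the lowest Pgk1 of the KO libraries. The WT library of its batch, without high Xist, was lower still, at 55.4 against 61.9 CPM.

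Lactate dehydrogenase is a tetramer of A and B chains. Ldha (chromosome 7, 46841475 to 46855627, plus strand) encodes the chain that dominates in muscle and in rapidly growing cells. At 1 week WT had 107.2, 115.3 and 104.4 CPM and KO 121.9, 254.1 and 259.1 CPM. Each KO library exceeded every WT library, replicate 1 by little and the others more than the whole WT spread. The log2 fold change was 0.98 (SE 0.34, edgeR adjusted p 0.244), and 0.77 (SE 0.31, adjusted p 0.213) without KO replicate 3. At 1 month WT had 421.1, 257.2 and 117.0 CPM and KO 258.6, 152.1 and 91.6 CPM. Levels followed the same order of replicates in both genotypes, and the groups overlapped. On average KO was lower within batch 2 (-0.73), where KO replicate 1 still exceeded WT replicate 2 (258.6 against 257.2 CPM). Between the single libraries of batch 3, which also differ in sex, the difference was -0.35. With batch in the model the log2 fold change was -0.59 (SE 0.25, adjusted p 0.204).

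Ldhb (chromosome 6, 142490249 to 142507957, minus strand) encodes the chain of heart and other oxidative tissues. It had 289.5, 299.9 and 245.2 CPM in WT against 263.8, 215.1 and 42.8 CPM in KO at 1 week. KO replicate 3 was far below all other libraries, and replicates 1 and 2 were within or just under the WT range. The log2 fold change was -0.65 (SE 0.59, edgeR adjusted p 0.612), and -0.24 (SE 0.20) without that library. At 1 month WT had 458.2, 382.1 and 342.5 CPM and KO 429.5, 379.8 and 319.8 CPM, a KO-to-WT log2 difference of -0.06 (SE 0.20, adjusted p 0.891).

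Ratios of isoenzyme genes within each library were compared by exact two-sided permutation tests, in which 3 against 3 libraries cannot give a p below 0.1. The log2 ratio of Pfkp to Pfkl was -2.03, -1.58 and -2.47 in WT and -0.40, -0.19 and 1.58 in KO at 1 week. KO libraries did not overlap WT, with a difference of 2.36 (exact p 0.1, 0.3 adjusted over 6 tests). The log2 ratio of Ldhb to Ldha was 1.43, 1.38 and 1.23 in WT and 1.11, -0.24 and -2.59 in KO, a difference of -1.92 with the same exact p of 0.1. That spread in KO, an SD of 1.87 against 0.10 in WT, had replicate 3 as its lowest value, and the difference without it was -0.91. The log2 ratio of Hk2 to Hk1 overlapped between genotypes at 1 week, with a difference of -0.59 (exact p 0.4). At 1 month the differences were -0.13 for Hk2 to Hk1, -0.26 for Pfkp to Pfkl and 0.54 for Ldhb to Ldha, with exact p of 0.9, 0.4 and 0.4, and the genotypes overlapped for each.

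**Figure D3:**
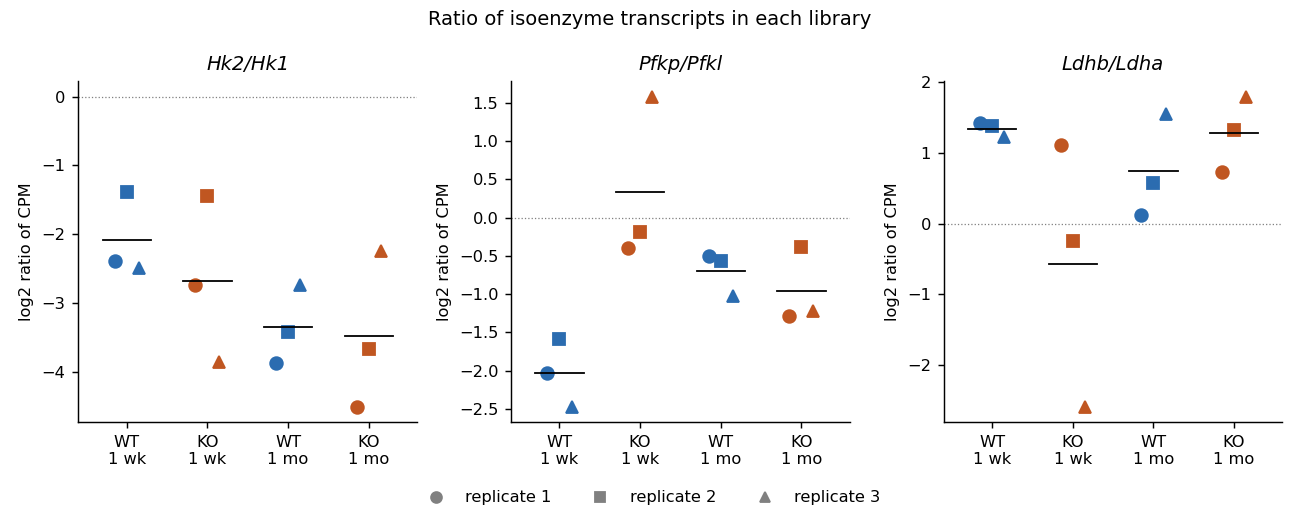
Log2 ratio of CPM between isoenzyme genes in each of the 12 libraries, WT in blue and KO in orange, with the group mean as a bar. At 1 week the KO libraries lie above WT for Pfkp to Pfkl and below WT for Ldhb to Ldha, and at 1 month the genotypes overlap in all 3 ratios.

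A change of the KO effect with time was tested as an interaction over all 12 libraries. Genotype and sex cannot be told apart at 1 week, nor time and batch, so this contrast holds those differences too. By edgeR 0 of the 10 genes and 0% of 13122 genes passed, 3 of 10 and 48.3% of all were above 0, while an unadjusted p under 0.05 was reached by 2 of 10 and by 19.9% of all. These were Pfkp, whose effect at 1 month minus that at 1 week was -2.51 (SE 0.59, adjusted p 0.104), and Ldha at -1.56 (SE 0.47, adjusted p 0.137). DESeq2 called both genes in the same contrast, where it called 6.99% of all genes. The edgeR interaction passed for Pfkp without KO replicate 1, 2 or 3 of 1 week, in fits that called 1.61%, 3.29% and 2.32% of all genes. Its values ran from -2.78 to -1.69 over all libraries left out in turn.

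The libraries of 1 month also differed by batch. For 8 of 10 the batch 3 libraries, 1 WT and 1 KO, were the lowest of that time, while Gapdh was highest in them. In 6 of 10 WT replicate 1 was the highest library of 1 month. At 1 week 5 of 10 were highest in KO replicate 2, and KO replicate 3 was lowest of the 6 libraries for 5 and highest for 3. The shares of all genes with these orders of libraries were not counted, so the counts are not read as traits of the enzyme genes. The summed CPM of the 10 genes was 1463 to 1581 in WT and 1456 to 2176 in KO at 1 week, and 1982 to 3034 in WT and 1964 to 2737 in KO at 1 month. For 6 of 10 every WT library of 1 month exceeded every WT library of 1 week, as for 22.2% of all genes, a contrast in which time and batch cannot be told apart.

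Markers of other cell types were measured in the same libraries. At 1 week 11 of 19 stromal, muscle and immune markers tested were higher in every KO library than in WT, against 13.3% of all genes. In edgeR 0 passed, and 12 had an unadjusted p under 0.05, against 15.5% of all genes. The sum of all 20 ran from 3912 to 6193 CPM in WT and from 6816 to 11660 CPM in KO. None of the 20 was at 0 in all libraries. Tagln, of smooth muscle, went from 22.2 ± 10.6 (SD, n = 3) to 257.1 ± 218.0 CPM (log2 fold change 3.55, SE 0.75). Pdgfra, of fibroblasts, went from 43.1 ± 5.26 to 325.6 ± 319.2 CPM (2.93, SE 0.68). Of the 19 log2 fold changes, 17 were above 0 and 2 below, among them the muscle gene Des at -1.14 (SE 0.83). Acta2, also of smooth muscle, was at 2.36 (SE 0.99), with the genotypes overlapping. The 17 markers of dividing cells summed to 64.6 to 96.7 CPM in WT and 184.3 to 974.2 CPM in KO at 1 week. Of 15 tested, 11 were higher in every KO library, against 13.3% of all genes. By edgeR 0 of the 15 passed, and 11 had an unadjusted p under 0.05, against 15.5% of all genes. Mki67 was at 2.44 ± 0.541 in WT and 122.1 ± 85.2 CPM in KO, and Top2a at 11.4 ± 1.07 and 220.7 ± 146.0 CPM. KO replicate 3 held the highest Tagln and Pdgfra, at 496.1 and 694.0 CPM. Without it the log2 fold changes were 2.62 for Tagln (edgeR adjusted p 0.0485), 1.70 for Pdgfra (0.0152), 5.45 for Mki67 (0.0252) and 4.09 for Top2a (0.0315). In that fit 3 of 19 and 6 of 15 markers of these lists passed, against 2.45% of 13059 genes. The part of these markers in the differences of Pfkp, Ldha and Aldoa was not tested. Urothelial markers were present throughout, and their sum ran from 13740 to 16656 CPM in WT and from 12081 to 15192 CPM in KO at 1 week. Of these, Trp63, of basal cells, was at 78.3 ± 4.35 in WT and 47.8 ± 2.09 CPM in KO, and Upk1b at 853.5 ± 163.3 and 402.3 ± 259.2 CPM, a log2 fold change of -1.06, and of -0.69 without KO replicate 3. Of the 17 urothelial markers tested, 11 log2 fold changes were below 0 and 6 above, with Upk3b at 0.49, and 0 passed in edgeR. In bulk tissue fewer cells of a type and less RNA per cell cannot be told apart.

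At 1 month 3 of 19 stromal, muscle and immune markers fell in KO by edgeR, where 2.22% of all genes were called: the macrophage genes C1qa (log2 fold change -1.95, adjusted p 0.0121), C1qb (-1.38, adjusted p 0.0302) and Cd74, of antigen-presenting cells (-1.76, adjusted p 0.00344). Of the 19, 13 were below 0 and 6 above, with Pecam1 at 1.31 and higher in every KO library, though it did not pass. The sum of all 20 ran from 10993 to 15635 CPM in WT and from 8943 to 10355 CPM in KO. The umbrella cell gene Krt20 fell by 1.76 on the log2 scale (adjusted p 0.00601), the 1 of 17 urothelial markers to pass, beside the basal gene Krt5 at 1.44 (adjusted p 0.0505). None of C1qa, C1qb, Cd74 and Krt20 passed with no batch covariate (adjusted p 0.221 to 0.341) or in the fit of all 12 libraries (0.199 to 0.357). C1qa was also lost without KO replicate 1 or 2 (0.0733 and 0.0676), and C1qb without WT replicate 1 or 2 or KO replicate 1 or 2 (0.0825 to 0.102). Dividing-cell markers summed to 76.7 to 141.0 CPM in WT and 80.3 to 95.7 CPM in KO, with Mcm5 at -1.30 and Mcm6 at -1.70, neither of which passed. Of 11 tested, 7 log2 fold changes were below 0 and 4 above, with Mcm2 at 1.12, and 0 passed. Red blood cell markers overlapped at both times, with Alas2 at -0.64 and -0.58 and Hbb-bs at -1.13 and -0.73.

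Of 18 other glycolysis enzymes listed in the tables, 8 passed the filter on low counts at each time, and 0 were called by edgeR at either (2 and 1 had an unadjusted p under 0.05). Pgam1, the phosphoglycerate mutase of most tissues, had 322.0, 291.8 and 342.7 CPM in WT against 534.0, 713.8 and 1526 CPM in KO at 1 week. The genotypes did not overlap, and the log2 fold change was 1.56 (SE 0.43, adjusted p 0.171). Eno2, the neuronal enolase, had 3.80, 4.70 and 7.72 CPM in WT and 13.2, 13.1 and 48.5 CPM in KO, a KO-to-WT log2 difference of 2.21 (SE 0.63, adjusted p 0.174). As for Pfkp, KO replicate 3 was the highest library of 1 week for both, and without it the values were 0.95 (SE 0.21) for Pgam1 and 1.26 (SE 0.36) for Eno2. Pkm, pyruvate kinase, had 791.0, 837.8 and 975.0 CPM in WT against 1151, 688.0 and 1682 CPM in KO at 1 week (0.46, SE 0.38), and 2739, 1887 and 1133 CPM in WT against 1737, 1207 and 680.2 CPM in KO at 1 month. As for Ldha, its level at 1 month was highest in replicate 1 and lowest in replicate 3 of each genotype, and the log2 fold change was -0.67 (SE 0.26, adjusted p 0.160). Aldoc, Tpi1, Bpgm, Eno3 and Pfkm lay between -0.71 and -0.10 at 1 week, and with Eno2 (-0.47) and Pgam1 (-0.41) between -0.47 and 0.63 at 1 month. Eno1, the enolase of most tissues, was listed at 0 counts in all 12 libraries. The hemoglobin genes Hba-a1 and Hba-a2 were also at 0 in all, while Hbb-bs reached 667.8 CPM, so no level is read from these zeros.

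Glucose and lactate transporters gave 0 calls of 10 tested at 1 week and of 9 at 1 month by edgeR, with an unadjusted p under 0.05 for 3 and 2. The glucose transporter Slc2a3 had 0.357, 0.458 and 0.609 CPM in WT against 1.66, 3.12 and 2.77 CPM in KO at 1 week (2.38, SE 0.55, adjusted p 0.130), and Slc2a12 went from 4.99 ± 1.16 to 1.25 ± 1.03 CPM (-1.90, SE 0.69). Both separated the genotypes, in opposite directions, on few counts (3 to 29 per library for Slc2a3 and 1 to 52 for Slc2a12). At 1 month Slc2a9, which carries urate and sugars, was at 9.35 ± 0.370 in WT and 16.2 ± 0.970 CPM in KO (0.80, SE 0.27, adjusted p 0.120), and the lactate exporter Slc16a3 was at -0.68 (SE 0.24, adjusted p 0.133).

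Regulators of the pathway gave 0 calls of 8 tested at 1 week and of 7 at 1 month, with an unadjusted p under 0.05 for 3 and 1. Txnip, a glucose-induced inhibitor of glucose uptake, had 254.8, 454.4 and 117.7 CPM in WT against 37.9, 94.5 and 43.6 CPM in KO at 1 week. It was lower in every KO library, with a KO-to-WT log2 difference of -2.21 (SE 0.58, edgeR adjusted p 0.158). Its levels at 1 month split by batch, with 448.8 and 319.2 CPM in batch 3 and 19.2 to 43.9 CPM in batch 2. Hif1a, which encodes the oxygen-regulated subunit of HIF-1, had 105.3, 102.9 and 131.3 CPM in WT against 129.5, 262.5 and 705.3 CPM in KO at 1 week (1.71, SE 0.59, adjusted p 0.239). KO replicate 3 held the highest Hif1a of all libraries, and without it the value was 0.78 (SE 0.31, adjusted p 0.217). At 1 month Pfkfb2, which makes the activator of phosphofructokinase, was lower in every KO library, at 34.6 ± 11.2 in WT and 19.2 ± 2.73 CPM in KO (-0.80, SE 0.23, adjusted p 0.0825), and Pfkfb4 was at 0.50 (SE 0.32).

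HIF targets outside glycolysis went in both directions. Of 14 tested at each time 0 were called by edgeR, with an unadjusted p under 0.05 for 5 (3 higher and 2 lower) and 2, and the median log2 fold change was 0.09 at 1 week and 0.01 at 1 month. Higd1a was at 1.33 (SE 0.38) and P4ha1 at 1.40 (SE 0.41) at 1 week, with every KO library above WT, and Higd1a was at 0.82 without KO replicate 3. Ndrg1 (-1.16, SE 0.35) and Bnip3 (-0.93, SE 0.39), named after their values were seen, had every KO library below WT. Egln1, an oxygen sensor that marks HIF-1 for decay, was at 0.82 (SE 0.24, adjusted p 0.0826) and Adm at 0.64 (SE 0.26) at 1 month.

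The only genes of the surrounding metabolic lists to pass at 1 month were Fbp2 and H6pd, and 0 passed at 1 week. Fbp2, a fructose bisphosphatase that opposes phosphofructokinase, had 19.4, 24.0 and 41.9 CPM in WT and 60.9, 61.7 and 68.3 CPM in KO at 1 month. It rose by a KO-to-WT log2 difference of 1.23 (SE 0.24, edgeR adjusted p 0.0250), with no overlap, as 1 of 4 gluconeogenesis genes tested. Fbp1 was at 0.75 (SE 0.34) at 1 month and at -0.99 (SE 0.37) at 1 week, where G6pc3 was at -0.87 (SE 0.47). H6pd, which starts the pentose phosphate route in the endoplasmic reticulum, had 16.4, 16.3 and 52.6 CPM in WT and 40.5, 37.2 and 77.2 CPM in KO at 1 month. It rose by 1.01 (SE 0.23, adjusted p 0.0429), as 1 of 8 pentose phosphate genes. KO was higher within each batch, though the batch 3 libraries differ in sex as well as genotype. Without WT replicate 1, WT replicate 2, KO replicate 1 or KO replicate 2 neither passed, with adjusted p of 0.0663 to 0.135 for Fbp2 and 0.1 to 0.209 for H6pd. Without batch as a covariate they were 0.474 and 0.695, and in the fit of all 12 libraries 0.474 and 0.517. Other pentose phosphate genes named by the same rule were Rpia at 0.82 and the X-linked G6pdx at -0.62 at 1 week, and Tkt at -0.48 at 1 month, none of which passed.

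Genes that steer pyruvate into mitochondria gave 0 calls of 14 at either time by edgeR, with an unadjusted p under 0.05 for 1 and 3. Pdk1, a kinase that switches off pyruvate dehydrogenase and is itself a HIF-1 target, was at 34.96 ± 1.19 in WT against 18.7 ± 4.21 CPM in KO at 1 week (-0.88, SE 0.29, adjusted p 0.228), with every KO library lower. Dld, a subunit shared by mitochondrial dehydrogenase complexes, was at 1.43 (SE 0.69), a value carried by KO replicate 3 at 181.2 CPM, and at 0.10 (SE 0.26) without it. At 1 month Pdk2 was at -0.93 (SE 0.25, adjusted p 0.0691) and pyruvate carboxylase, Pcx, at -0.84 (SE 0.25, adjusted p 0.0896).

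**Figure D4:**
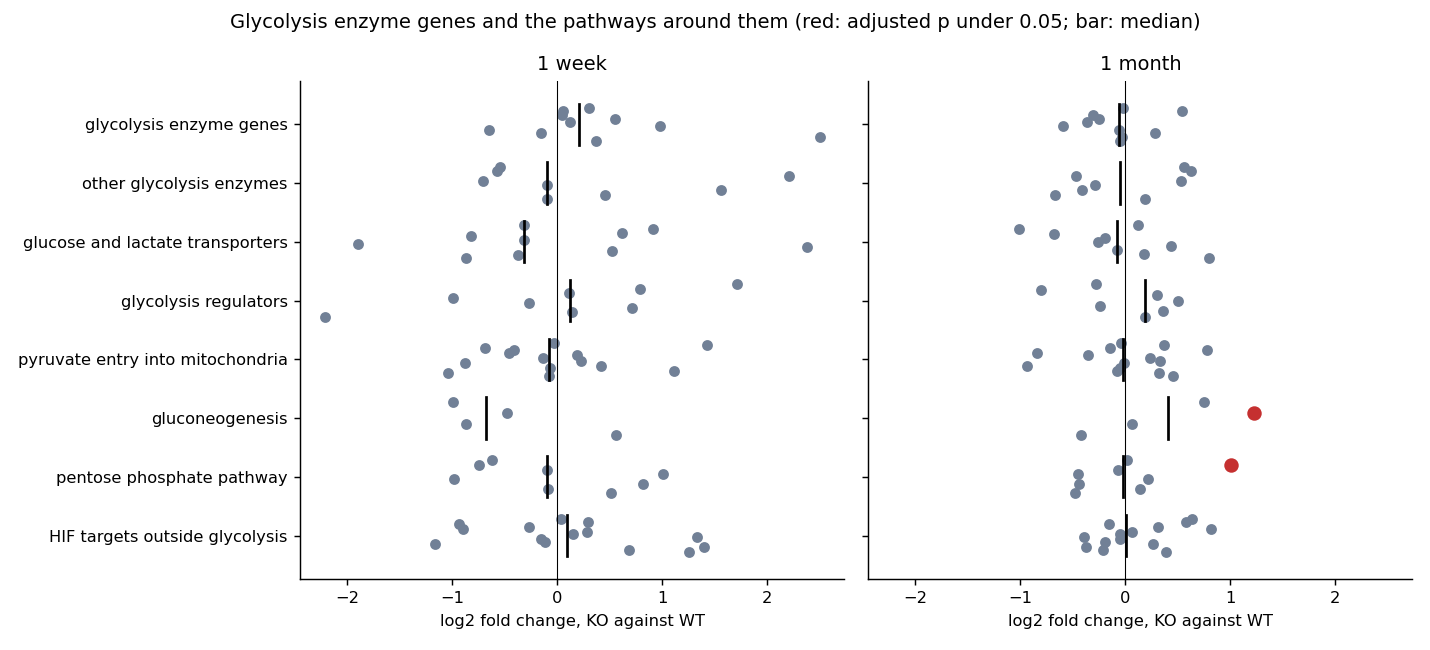
Log2 fold change of KO against WT for each tested gene of the glycolysis enzyme genes and the surrounding metabolic lists at 1 week (left) and 1 month (right), with list medians as bars and genes past an adjusted p of 0.05 in red. The red points are Fbp2 (1.23) and H6pd (1.01) at 1 month, and the list medians lie between -0.68 and 0.41.

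The genes outside all lists whose centred log2 CPM followed the mean of the 10 enzyme genes most closely over the 12 libraries were Zfp532, Prrc1, Nqo2, Rhog and Nkiras2. Their root mean square difference from that mean was 0.139 to 0.151, the smallest among 12991 genes ranked. Among the enzyme genes themselves it was lowest for Gpi1 (0.194), Pgk1 (0.237) and Aldoa (0.238) and highest for Pfkp (0.971) and Gapdh (1.14). The latter pair thus followed the others least. Gapdh had its low in KO replicate 3 of 1 week. Pfkp had its high in that same library (116.9 CPM), where the mean centred log2 CPM of the 10 was lowest (-0.67). Its low was in the WT libraries of 1 week.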

How the data were processed

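The deposited tables hold the authors' raw counts per gene symbol, 1 table for each time, with 23337 symbols and 12 columns matched to libraries by the library name in the labels. The title of WT replicate 3 at 1 month carries another animal number than its library name. Per the labels' protocols, QuantSeq forward 3′ libraries were made with oligo-dT priming and carry the sense strand. The submitters' processing notes name Bowtie, TopHat, HTSeq, DESeq2 and mm10, without versions, and the gene annotation is not given in the sources used here. Coordinates are from GENCODE M21 (GRCm38) and promoters from RefSeq (GRCm38.p6).

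The quasi-likelihood test of edgeR 4.0.16 under R 4.3.3 was run for each time (two-sided, robust dispersions, TMM, default filter), with batch as a covariate at 1 month and Benjamini-Hochberg adjustment over all genes tested. The SE is the absolute log2 fold change over the square root of F. Log2 CPM used a prior count of 2. Pkm, Tigar, Mpc1, Mpc2, Adgre1 and Hbb-bs were found under older symbols. Replicates were numbered in accession order, separate animals are taken from the titles, and replicate counts always differed by more than sampling noise. The fits were tested on simulated counts.

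The members and lists were chosen with earlier results of these data known. Named genes are the 10 enzyme genes, Stag2, all other glycolysis enzymes tested, the called genes of each other list with the 2 of smallest p per time, and the 5 genes most alike. Alternatives were other scaling, filters, dispersions without the robust option, DESeq2 (version 1.42.0), other designs and leaving out each library.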

Additional observations from a re-analysis of the deposited data

Results flagged for a closer look

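In 5 genes of the lists every KO library lay on one side of WT at 1 week and on the other at 1 month. The interaction test of this difference, the log2 effect at 1 month minus that at 1 week, did not pass in edgeR for any of them. It was 1.68 for the transporter Slc2a9 (adjusted p 0.111), which was lower in KO at 1 week and higher at 1 month. It was -1.93 for the stromal marker Vim (adjusted p 0.0990), -3.97 for C1qa (adjusted p 0.0879), -2.39 for C1qb (adjusted p 0.104) and -4.90 for the replication gene Mcm5 (adjusted p 0.0879), all higher in KO at 1 week and lower at 1 month. None of the 10 glycolysis enzyme genes did this, as the genotypes overlapped for all 10 at 1 month. Over all genes 26.6% did not overlap at 1 week and 13.1% at 1 month, and the share that switched sides was not counted. In the interaction, genotype cannot be told from sex at 1 week, nor time from batch. Groups of 3 libraries are too small for a test of single outlying libraries.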

How the results depend on the processing

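No paired analysis was possible because the labels give no replicate numbers. The number of the 10 enzyme genes called at 1 week was 0 and became 1 (Pfkp) under DESeq2 and in the fit of all 12 libraries, with 0 to 1 over libraries left out in turn. At 1 month it was 0 and became 1 (Gapdh) in batch 2 alone, with 0 to 1 over libraries left out. In the interaction it was 0 and became 1 (Pfkp) with no filter on low counts and 2 under DESeq2, with 0 to 1 over libraries left out. Over all genes the calls went from 8 to between 0 and 957 at 1 week, from 269 to between 0 and 1522 at 1 month and from 0 to at most 917 in the interaction, with DESeq2 highest at 1 week and in the interaction. With library size alone the median of all genes at 1 month moved to 0.22, and Pfkp (0.20), Aldoa (0.19), Pgk1 (0.18) and Ldhb (0.16) changed sign. Pfkp (0.02) and Aldoa (0.03) did so with no filter on low counts and Aldoa (0.00) in batch 2 alone. Leaving out libraries gave, at 1 week, -1.23 to 0.58 for Gapdh, -0.10 to 0.21 for Gpi1, -0.79 to 0.46 for Hk2, -0.30 to 0.04 for Pfkl and -0.38 to 0.69 for Pgk1. At 1 month it gave -0.22 to 0.17 for Aldoa, -0.09 to 0.08 for Pfkp, -0.14 to 0.05 for Pgk1 and -0.75 to 0.38 for the Hk2 to Hk1 ratio, and in the interaction -0.06 to 1.78 for Gapdh, -0.88 to 0.44 for Hk2 and -0.76 to 0.34 for Pgk1. The cause of these changes was not tested. Of 460 alternative values of the enzyme genes, 422 kept direction and side of the threshold, 26 reversed and 12 newly passed. Counts of 3 libraries a group limit the precision, and a prior count of 0.5 changed no isoenzyme ratio's direction.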
